A study of Mus musculus with 12 samples.

Results

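The CREB3 family was followed in organoids of mouse pancreatic ductal adenocarcinoma, a tumour of the pancreatic duct lineage. Its members were taken by name: Creb3, Creb3l1, Creb3l2, Creb3l3 and Creb3l4, which are 5 of the 53715 genes listed in the deposited tables. All 5 passed the filter on low counts, Creb3l3 only through the mT69a control libraries.

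CREB3 proteins are basic leucine zipper transcription factors that are made as precursors anchored in the membrane of the endoplasmic reticulum (ER). After transport to the Golgi, the site-1 and site-2 proteases cut the precursor, and the freed amino-terminal part enters the nucleus. The family is known for raising genes of the early secretory pathway in cells that secrete a great deal: Creb3l1 (OASIS) in osteoblasts and goblet cells, Creb3l2 (BBF2H7) in chondrocytes, Creb3l3 (CREBH) in liver and small intestine, Creb3l4 (AIbZIP, Tisp40) in prostate and testis, and Creb3 (Luman) broadly. Because activity depends on cutting, an RNA level does not measure active factor.

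The organoids came from the lines mT6 and mT69a, both on a C57/Bl6 background, and in all groups, controls included, the labelled genotype holds Trp53LSLR172H/LOH and Pdx1-Cre. Cre under the Pdx1 promoter switches on mutant Trp53 in pancreatic epithelium. The series text gives the Trp53 genotype as R172H/+, which differs from the sample labels. Each line was present in 3 conditions: a Rosa26 knock-out clone with empty vector (control), a Spdef knock-out clone with empty vector (knockout), and a Spdef knock-out clone with an SPDEF over-expression vector (SPDEF vector). Spdef encodes an ETS-family transcription factor known from mucus-secreting epithelia, and the comparisons ask what differs when it is lost and when it is supplied. Each of the 6 groups held 2 libraries, 12 in all. The labels name clones and not separate cultures, so p-values measure the spread between these libraries only. Within a line the knockout and vector libraries carry the same clone name, whereas the control is another clone, so a difference from the control cannot be told apart from one between clones.

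Library depth ranged from 9094295 to 28903831 estimated reads on genes. The share of reads on mitochondrial genes was 12.7 to 15.5% in every replicate 1 library and 18.6 to 27.1% in every replicate 2 library. For the targeted gene, Spdef, the mT6 control gave 30 and 29 reads and the mT6 knockout 0 and 2. The mT69a control gave 2 and 4 and the mT69a knockout 2 and 0, which is too few to check the label. The vector libraries gave 1 and 0 in mT6 and 2 and 0 in mT69a, so mouse Spdef RNA does not check the vector either. All 10 epithelial markers (Epcam, Cdh1, Krt19 and others) were detected in every condition, with a summed level of 2267 to 5207 TPM (a level scaled for depth and transcript length). Markers of acinar, endocrine or tuft, fibroblast and endothelial cells summed to at most 1.31 TPM in any library. The 10 immune and plasma cell markers summed to 4.02 to 9.34 TPM in the control, 4.61 to 14.4 TPM in the knockout and 2.1 to 5.8 TPM with the vector. More than 6 counts were held by 1 of these 10 in the control, 2 in the knockout and 2 with the vector. Adgre1 and Cd3e were at 0 in every condition. The part of these 10 markers in the results was not tested.

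Creb3l4 and Creb3l1 were the members that rose with the SPDEF vector, in both lines, and Creb3l1 was the member that fell in the knockout clones. Averaged over the lines, 1 of 5 members fell and 0 rose in the knockout against the control (edgeR quasi-likelihood test, Benjamini-Hochberg adjusted p under 0.05 over all genes tested), where 5.6% of the 14473 genes tested were called, 3.3% as higher and 2.3% as lower. Against the knockout, 2 of 5 rose in the vector libraries and 0 fell, where 7.77% of genes were called (4.46% higher, 3.32% lower). Against the control 2 of 5 rose and 0 fell, where 14.5% were called (8.04% higher, 6.41% lower). At an unadjusted p under 0.05 the same 3 comparisons held 1, 3 and 3 members, and DESeq2 called 1, 2 and 2. The share of all genes at an unadjusted p or by DESeq2 is not given here or below, so nothing is read from such counts. Within the lines, Creb3l1 and Creb3l4 fell in the mT6 knockout (2 of 5, against 3.23% of all genes called in either direction) and Creb3l1 in the mT69a knockout (1 of 5, against 8.6%). With the vector both rose in each line, against 2.69% of genes called in mT6 and 4.25% in mT69a relative to the knockout, and 8.6% and 12.4% relative to the control. These comparisons share libraries and are not independent of each other. In bulk RNA, fewer cells that express a gene and less RNA per cell cannot be told apart.

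**Figure D1:**
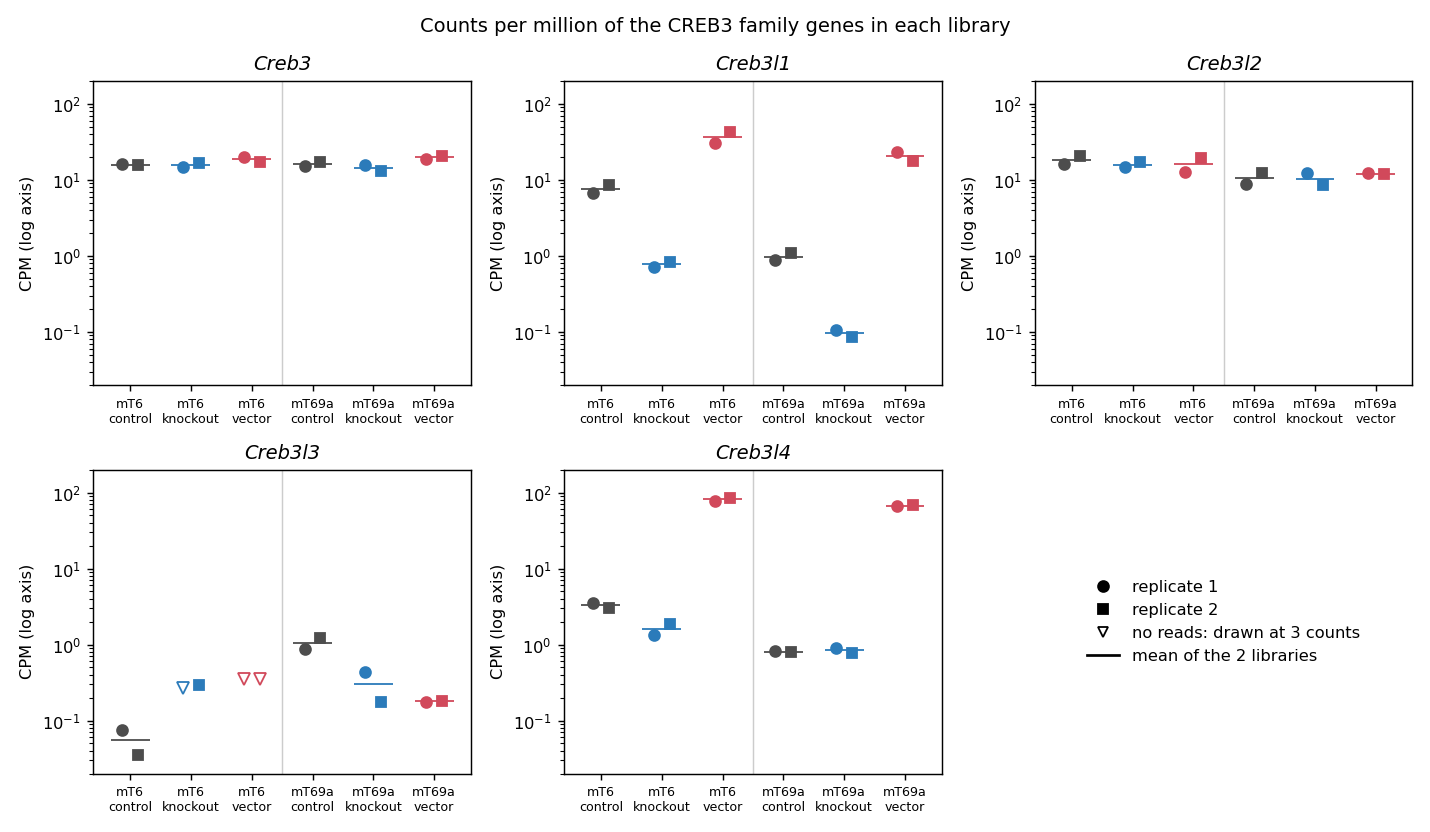
Depth-scaled level on a log axis, as CPM (counts scaled to a common library size), of each CREB3 family gene in the 6 groups. Circles and squares are the replicate 1 and replicate 2 libraries, horizontal lines are means of 2 libraries, and open triangles are libraries with no reads, drawn at 3 counts. Creb3l4 lies between 65.9 and 84.7 CPM in the vector libraries and at no more than 3.58 CPM elsewhere, and Creb3l1 is lowest in the knockout libraries of each line.

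Creb3l4 (ENSMUSG00000027938.11) lies on the minus strand of chromosome 3, at 90237500 to 90243512 of GRCm38. The mT6 libraries held 47 and 86 counts in the control, 15 and 38 in the knockout, and 667 and 722 with the vector. The mT69a libraries held 13 and 12 counts in the control, 17 and 9 in the knockout, and 1111 and 761 with the vector. Every vector library stood far above every library of the other conditions.

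In CPM, after TMM scaling of the libraries, the Creb3l4 level with the vector was 81.3 ± 4.8 CPM (SD, n = 2) in mT6 and 67.2 ± 1.92 CPM in mT69a. The corresponding control means were 3.32 ± 0.359 and 0.81 ± 0.00339 CPM, and the knockout means 1.6 ± 0.383 and 0.848 ± 0.0925 CPM. Averaged over the lines, Creb3l4 was higher with the vector than in the knockout by a log2 difference of 5.95 ± 0.14 (± SE, adjusted p = 6.85e-09), which is 61.8-fold. Against the control the rise was 5.49 ± 0.13 (adjusted p = 1.08e-08). In all, 9.07% of the genes tested were higher in the vector libraries than in the knockout libraries in both lines with no overlap.

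The lines differed in their Creb3l4 level in the control. In the control libraries the log2 difference of mT69a from mT6 was -2.01 ± 0.21 (adjusted p = 9.19e-05). With the vector it was -0.27 ± 0.14 (adjusted p = 0.213). The vector libraries of the lines did not overlap, but the share of all genes for which this held is not given, so nothing is read from it. Of the 4 members other than Creb3l3, which passed the filter only through the mT69a control, 3 differed between the lines in the control, 2 in the knockout and 1 with the vector, where 28.2%, 25.3% and 17.8% of all genes were called. Set against the control, the rise was larger in mT69a (6.36 ± 0.20) than in mT6 (4.62 ± 0.17), and the test of that difference gave 1.74 ± 0.25 (adjusted p = 0.00334). This difference passed for Creb3l4 and Creb3l1, 2 of 5 members, and for 6.03% of all genes. The difference was not called on log2(TPM + 0.1) or log2(TPM + 1), where its adjusted p was 0.0894 and 0.24. Set against the knockout, the Creb3l4 rise differed between the lines by 0.65 ± 0.27 and did not pass (adjusted p = 0.99998), where 0.0138% of all genes did.

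In the knockout Creb3l4 was lower in mT6, and the call was fragile. The change was -0.999 ± 0.19 on the log2 scale (adjusted p = 0.0194), and the control and knockout libraries did not overlap, as for 43.0% of all genes. In mT69a it was 0.08 ± 0.26 (adjusted p = 0.952), and the libraries overlapped. The difference between the lines did not pass the test (1.08 ± 0.32, adjusted p = 0.177), where 6.62% of all genes did. The mT6 call was lost without replicate 1 of the control (adjusted p = 0.0981), replicate 2 of the control (0.0655) or replicate 1 of the knockout (0.133), and under 7 of 22 alternatives in all. Averaged over the lines the change was -0.46 ± 0.16 (adjusted p = 0.309). From high to low the 6 groups ran mT6 vector, mT69a vector, mT6 control, mT6 knockout, mT69a knockout and mT69a control, and the last pair overlapped. The knockout libraries of the lines differed by -0.93 ± 0.23 (adjusted p = 0.024), a call lost without either mT69a knockout library (adjusted p = 0.112 and 0.113) or replicate 2 of the mT6 knockout (0.411), and under 8 of 22 alternatives in all.

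In every condition most Creb3l4 was estimated on the transcript with the downstream start. The annotation (GENCODE M21) lists 2 transcripts, Creb3l4-201 and Creb3l4-202, of 10 exons each and with the same coding exons. They differ at the 5' end: the first exon of Creb3l4-201 spans 90243308 to 90243512 (205 bp), and that of Creb3l4-202 spans 90243018 to 90243143 (126 bp), so that their starts lie 369 bp apart. The Creb3l4-202 estimate was 2.13 and 1.97 TPM for the mT6 control, 1.23 and 0.72 TPM for the knockout, and 60.9 and 61.8 TPM with the vector. In mT69a it was 0.74 and 0.63 TPM in the control, 0.66 and 0.62 TPM in the knockout, and 55.3 and 47.9 TPM with the vector. These estimates put 91.0 to 97.7% of Creb3l4 on the downstream-start transcript in the 4 vector libraries, 69.1 to 100% in the control and 52.1 to 100% in the knockout.

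Creb3l4-201 was estimated at 1.13 to 6.15 TPM with the vector, 0 to 0.95 TPM in the control and 0 to 0.66 TPM in the knockout. Tested over all 37794 transcripts, Creb3l4-202 rose by 6.26 ± 0.16 on the log2 scale against the knockout (adjusted p = 1.71e-06) and by 5.62 against the control (adjusted p = 2.91e-06), where 0.939% and 1.92% of transcripts were called. The upstream-start transcript gave 4.0 ± 1.11 and 5.69 ± 1.37, with adjusted p = 0.245 and 0.112. Without the count filter both rises of Creb3l4-201 were called (3.99 and 5.69, adjusted p = 1.96e-05 and 1.69e-07). The transcripts share most of their sequence, and the authors' counting with RSEM divides shared reads by estimate, so the split rests on the reads within 275 bases particular to Creb3l4-201 and 126 bases particular to Creb3l4-202.

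**Figure D2:**
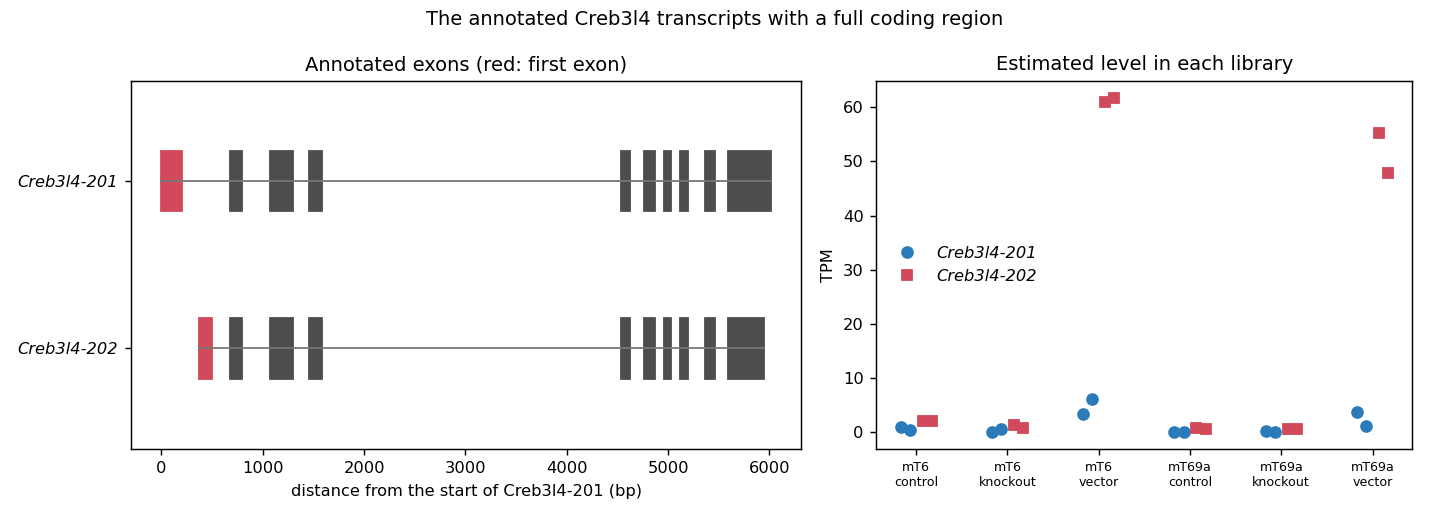
Left: annotated exons of the Creb3l4 transcripts, drawn to scale by distance in bp from the start of Creb3l4-201, with first exons in red. Right: estimated level in TPM in each library of the 6 groups, where Creb3l4-202 (squares) reaches 47.9 to 61.8 TPM with the vector and Creb3l4-201 (circles) stays at or below 6.15 TPM.

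The stretches around these starts are shown because the estimates of both transcripts were higher with the vector. SPDEF is known to prefer ETS sites with a GGAT core, so GGAT was searched on both strands and is in capitals (ATCC where it lies on the opposite strand). All 3 stretches are from the RefSeq promoter table of GRCm38.p6, minus strand, 5′ to 3′: the 250 bases before the start of Creb3l4-201 (chr3:90243513-90243762), the 164 bases of intron between the first exon of Creb3l4-201 and the start of Creb3l4-202 (chr3:90243144-90243307), and 30 bases within the first exon of Creb3l4-202 (chr3:90243106-90243135).
Creb3l4-201 before the start: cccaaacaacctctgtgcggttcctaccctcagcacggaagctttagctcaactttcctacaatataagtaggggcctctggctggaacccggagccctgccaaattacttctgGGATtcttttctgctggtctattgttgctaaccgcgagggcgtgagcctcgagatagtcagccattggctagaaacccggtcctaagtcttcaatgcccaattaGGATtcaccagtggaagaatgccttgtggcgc
Creb3l4-202 intron before the start: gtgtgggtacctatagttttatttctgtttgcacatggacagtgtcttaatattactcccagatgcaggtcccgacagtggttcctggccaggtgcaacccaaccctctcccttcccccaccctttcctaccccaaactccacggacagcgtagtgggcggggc
Creb3l4-202 after the start: gcaggaccaGGATacagATCCtggtggaaa
The letters GGAT stood at positions -136 and -32 before the upstream start, at 16 and 23 just after it, and in none of the 164 intron bases. Just after the downstream start they stood at 18 on the same strand and at 26 on the opposite strand, and the longer CAGGAT stood on both strands there, at 16 and 26. Of 32851 RefSeq promoter windows of 300 bases (250 before and 50 after a start), 79.6% held GGAT and 16.2% held CAGGAT. The matches describe the letters and are not evidence of binding.

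Genes beside Creb3l4 gave smaller changes than Creb3l4 itself. Within 50 kb, 8 other genes were tested, and the nearest lies 1662 bp away. Against the knockout their log2 changes ran from -0.63 to 0.34 with the vector. There edgeR called 0 of 8 at an adjusted p under 0.05, where 7.77% of all genes were called. Against the control the changes ran from -0.46 to 0.45, and 1 of 8 was called, where 14.5% of all genes were. It was Slc39a1, a zinc transporter (0.42 ± 0.09, adjusted p = 0.0115), named after its value was seen. Nothing is read from counts this small. The median log2 change with the vector over the 798 tested genes of chromosome 3 was -0.01 against the knockout and 0.09 against the control. Over all genes these medians were -0.02 and -0.02.

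Creb3l1 (ENSMUSG00000027230.9) lies on the minus strand of chromosome 2, at 91982328 to 92024502, and has 1 annotated transcript. The mT6 libraries held 88 and 242 counts in the control, 8 and 17 in the knockout, and 259 and 368 with the vector. The mT69a libraries held 14 and 16 counts in the control, 2 and 1 in the knockout, and 390 and 196 with the vector. Within each line the 3 conditions did not overlap in depth-scaled level, with the knockout lowest and the vector highest, and 5.12% of all genes were lower in the knockout than in the control in both lines without overlap.

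In CPM, Creb3l1 fell from 7.66 ± 1.37 in the mT6 control to 0.771 ± 0.0908 in the knockout and stood at 36.7 ± 9.13 with the vector (SD, n = 2). In mT69a these means were 0.975 ± 0.143, 0.0972 ± 0.0145 and 20.4 ± 3.86 CPM. In the mT69a knockout libraries both values were under the floor of 3 counts, which corresponded to 0.161 and 0.261 CPM. The pooled counts there gave a level 9.76-fold below the control (95% exact interval 3.03 to 50) and a vector level 210-fold above the knockout (71.7 to 1024). These intervals cover counting error only.

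Averaged over the lines, the Creb3l1 change in the knockout was -3.24 ± 0.29 on the log2 scale (adjusted p = 0.000143). It was -3.29 ± 0.29 in mT6 (adjusted p = 0.00032) and -3.19 ± 0.54 in mT69a (adjusted p = 0.00451). The mT69a call was lost without replicate 1 of the knockout (-3.36, adjusted p = 0.0599) and on log2(TPM + 1) with and without the filter (-0.43, adjusted p = 0.667 and 0.742), and the mT6 call was lost when only the compared groups were fitted (-3.28, adjusted p = 0.0535). Against the knockout the vector libraries were higher by 6.55 ± 0.24 (adjusted p = 3.88e-07), an average that rests in part on the 3 counts of the mT69a knockout. On log2(TPM + 1), which compresses such low values, the rise was 3.37.

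The vector took Creb3l1 past its control level in both lines. The excess over the control was 3.31 ± 0.18 on the log2 scale averaged over the lines (adjusted p = 3.19e-06), 2.25 ± 0.22 in mT6 and 4.38 ± 0.27 in mT69a. The lines differed in this excess by 2.14 ± 0.35 (adjusted p = 0.00581), though not on log2(TPM + 0.1) or log2(TPM + 1) (adjusted p = 0.114 and 0.443). Set against the knockout, the rise differed between the lines by 2.03 ± 0.62 and did not pass (adjusted p = 0.685), where 0.0138% of all genes did. The log2 difference of mT69a from mT6 was -2.98 ± 0.28 in the control (adjusted p = 4.1e-05), -2.88 ± 0.56 in the knockout (adjusted p = 0.00466), and -0.84 ± 0.21 with the vector (adjusted p = 0.02). The knockout value rests on 3 counts in mT69a, and its call was lost on log2(TPM + 1) with and without the filter (-0.34, adjusted p = 0.481 and 0.591). The call with the vector was lost under 7 of 22 alternatives, among them without replicate 1 or replicate 2 of the mT69a vector libraries (adjusted p = 0.0511 and 0.155) or replicate 2 of the mT6 vector libraries (0.165). The groups ran, from high to low, mT6 vector, mT69a vector, mT6 control, mT69a control, mT6 knockout and mT69a knockout. The mT69a control (0.874 to 1.08 CPM) and the mT6 knockout (0.707 to 0.835 CPM) lay close together and were not tested against each other.

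Creb3l1 and Creb3l4 both rose with the vector, and both fell in the mT6 knockout. Averaged over the lines, the knockout change was -3.24 for Creb3l1 and -0.46 for Creb3l4, and the vector change against the control was 3.31 and 5.49. The difference between these genes was not tested. Within 50 kb of Creb3l1, 2 other genes were tested. With the vector against the knockout edgeR called 0 of 2 (log2 changes -1.05 and -0.31), where 7.77% of all genes were called. Dgkz, named after its value was seen, was lower against the control (-0.48), where 14.5% of all genes were called. Nothing is read from counts this small.

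**Figure D3:**
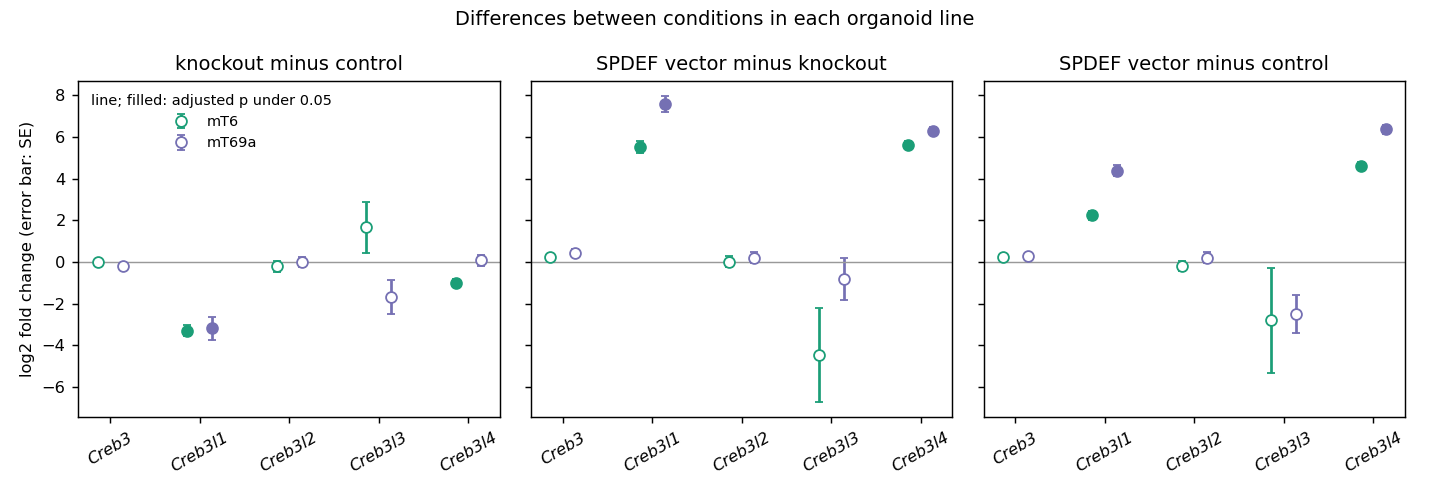
Log2 fold change of each CREB3 family gene in mT6 (green) and mT69a (purple) for the 3 comparisons, with standard errors. Filled points passed an adjusted p of 0.05. Creb3l1 and Creb3l4 are the filled members, Creb3l4 in the knockout comparison only for mT6, and Creb3l3 has the widest errors. Nothing is read from the Creb3l3 changes against the control, because the mT69a control alone took the gene past the filter.

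Creb3 (ENSMUSG00000028466.15) lies on the plus strand of chromosome 4, at 43562332 to 43567060, and was the steadiest member. The mT6 libraries held 210 and 442 counts in the control, 167 and 341 in the knockout, and 171 and 148 with the vector. The mT69a libraries held 247 and 258 counts in the control, 295 and 149 in the knockout, and 315 and 232 with the vector. Scaled for depth these counts lay between 12.9 and 20.9 CPM in all 12 libraries. In mT6 the means were 15.9 ± 0.15 CPM in the control, 15.8 ± 1.41 in the knockout and 18.7 ± 1.85 with the vector. In mT69a they were 16.4 ± 1.36, 14.4 ± 2.05 and 19.8 ± 1.58 CPM.

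In each line the vector libraries of Creb3 lay above the knockout libraries without overlap, by a small step. The same held in both lines for 9.07% of all genes tested. The Creb3 step was 0.35 ± 0.11 on the log2 scale averaged over the lines (adjusted p = 0.0926), and 0.34 ± 0.11 with the replicate number as a block (adjusted p = 0.0453). Control and knockout overlapped in both lines (-0.09 ± 0.11, adjusted p = 0.726), and the vector libraries were above the control by 0.25 ± 0.11 (adjusted p = 0.167). In TPM the last value was negative (-0.17 on log2(TPM + 1)). The gene total in TPM includes Creb3-205, a short retained-intron transcript estimated at up to 7.53 TPM from at most 27 counts, whereas the main transcript Creb3-201 ran from 7.27 to 11.5 TPM. Creb3 overlaps Tln1 and Gba2 on the opposite strand, and whether the counting used strand is not given in the sources used here.

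Creb3l2 (ENSMUSG00000038648.5), on the minus strand of chromosome 6 at 37327255 to 37442146, did not separate the conditions. The mT6 libraries held 211 and 573 counts in the control, 166 and 346 in the knockout, and 108 and 167 with the vector. The mT69a libraries held 141 and 181 counts in the control, 229 and 98 in the knockout, and 207 and 132 with the vector. In mT6 its means were 18.2 ± 3.1 CPM in the control, 15.8 ± 1.65 in the knockout and 16.1 ± 4.93 with the vector, and in mT69a they were 10.5 ± 2.38, 10.4 ± 2.67 and 12.1 ± 0.266 CPM. The conditions overlapped within each line, and the averaged log2 changes were -0.10 ± 0.18, 0.11 ± 0.18 and 0.01 ± 0.18 (adjusted p = 0.844, 0.832 and 0.991). Between the lines, the log2 difference of the mT69a control from the mT6 control was -0.81 ± 0.25 (adjusted p = 0.0371). This call was lost without either replicate 1 or replicate 2 of the mT69a vector libraries (adjusted p = 0.0569 and 0.0601), replicate 1 of the mT69a control (0.257) or replicate 2 of the mT6 control (0.205), and under 8 of 22 alternatives in all.

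Creb3l3 (ENSMUSG00000035041.8), on the minus strand of chromosome 10 at 81084324 to 81098874, was near the limit of detection. The mT6 control gave 1 read in each library, the mT6 knockout 0 and 6, and the mT6 vector libraries 0 and 0. The mT69a control gave 14 and 18 reads, the mT69a knockout 8 and 2, and the mT69a vector libraries 3 and 2. The mT69a control libraries were the highest, at 0.874 and 1.21 CPM. Since the gene was tested only because these libraries passed the filter, its difference from them to other groups is given as counts, with no test.

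With the vector against the knockout, a comparison without the control libraries, Creb3l3 was not called (adjusted p = 0.29). Markers of hepatocytes and enterocytes, the known sites of Creb3l3, summed to 0 to 21.2 TPM in the control libraries. The sums were 0.1 to 3.2 TPM in the knockout and 0.26 to 0.77 TPM with the vector. More than 6 counts were held by 4 of these 10 markers in the control, 2 in the knockout and 1 with the vector. Alb, Cyp3a11, Fabp1 and Serpina1a were at 0 in every condition. The part of these 10 markers in the Creb3l3 values was not tested.

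The make-up of the family turned over with the vector. On the length-scaled level of each gene's leading transcript, Creb3 led the control libraries with 8.13 to 9.8 TPM. In the mT6 control Creb3l1 (3.06 and 3.54 TPM), Creb3l2 (2.58 and 2.95), Creb3l4 (2.13 and 1.97) and Creb3l3 (0.04 and 0.02) followed. In the mT69a control the order was Creb3l2 (1.41 and 1.72 TPM), Creb3l4 (0.74 and 0.63), Creb3l3 (0.46 and 0.46) and Creb3l1 (0.4 and 0.43). By gene totals, Creb3l4 (13.8% of the family) came before Creb3l1 (13.7%) and Creb3l2 (12.8%) in replicate 1 of the mT6 control. Creb3l3 (3.72%) came before Creb3l4 (3.21%) in replicate 2 of the mT69a control, and the other replicate of each group kept the order above. The leading transcripts summed to 11.5 to 17.6 TPM in the control and 9.19 to 14.4 TPM in the knockout, and the gene totals to 19.6 to 25.4 and 9.71 to 18.4 TPM. With the vector the leading transcripts summed to 65.7 to 92.3 TPM, of which Creb3l4 made up 66.9 to 72.9% and Creb3 10.7 to 14.9%. In the knockout libraries Creb3 made up 69.7 to 79.1% and Creb3l4 4.57 to 9.3%. Creb3 itself stayed at 9.76 to 11.5 TPM with the vector, so its smaller share came with higher Creb3l4 and Creb3l1.

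**Figure D4:**
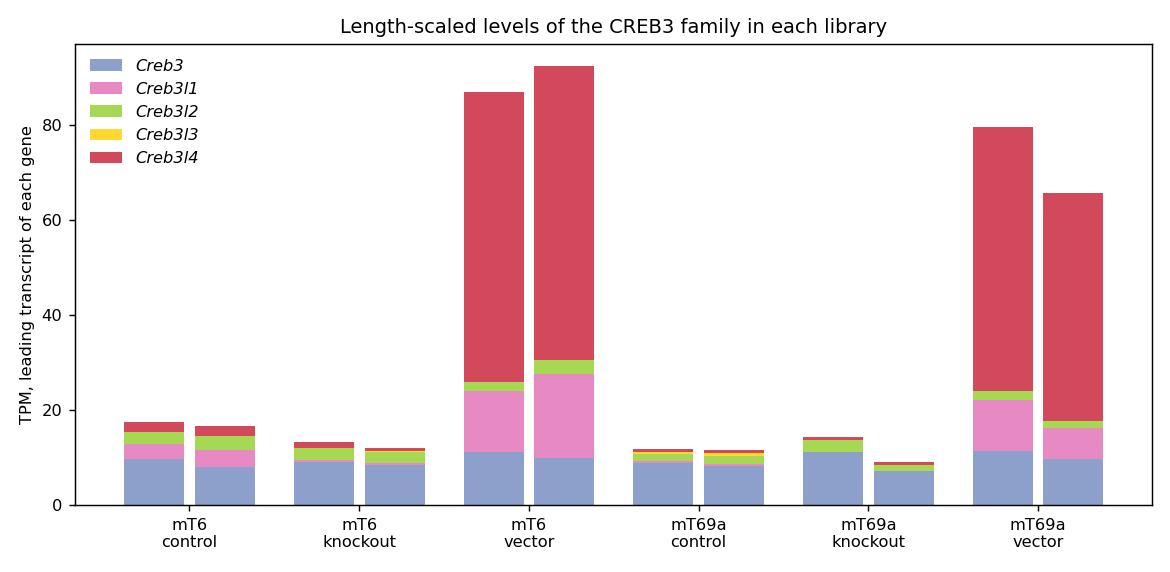
Stacked TPM of the leading transcript of each CREB3 family gene in the 12 libraries, 2 bars per group. The 4 vector libraries reach 65.7 to 92.3 TPM against 9.19 to 17.6 TPM in the other 8, and Creb3l4 (red) fills most of each.

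The enzymes and partners that process the precursors gave 1 call in 10 with the vector against the knockout, where 7.77% of all genes were called. Among 10 genes for processing and turnover, 0 were called in the knockout by edgeR (4 at an unadjusted p under 0.05, 1 by DESeq2 and 0 by limma on log2(TPM + 1)). With the replicate block 2 fell in the knockout, where 15.0% of all genes were called. Mbtps1, the site-1 protease, was at 92 ± 8.07 CPM in the mT6 knockout and 108 ± 20.9 CPM with the vector, and at 62.8 ± 1.08 and 69.2 ± 2 CPM in mT69a (0.19 ± 0.11, adjusted p = 0.391). Mbtps2, the site-2 protease, gave 0.18 ± 0.15 (adjusted p = 0.614). Syvn1, the ubiquitin ligase Hrd1 of ER-associated degradation, was the member of this list that rose against the knockout (0.50 ± 0.11, adjusted p = 0.0194), a call lost without either mT69a knockout library, the replicate 1 mT69a vector library or the replicate 1 mT6 knockout library (adjusted p up to 0.0853). Mbtps1 and Mbtps2 were named after their values were seen, as the proteases that cut the family.

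The ER stress sensors, which act in parallel to the CREB3 family, split by member. Ern2, the IRE1 relative of mucosal epithelia, had a log2 change of -3.40 ± 0.47 in the knockout (adjusted p = 0.00273) and of 5.40 ± 0.42 with the vector against the knockout (adjusted p = 5.47e-05). Xbp1, the factor whose RNA IRE1 splices, rose by 0.47 ± 0.11 against the knockout (adjusted p = 0.0275), a call lost without 7 of the 12 libraries in turn (adjusted p up to 0.115). Hspa5, the ER chaperone BiP and a common readout of ER stress, gave -0.01 ± 0.14 against the knockout (adjusted p = 0.993) and was named after its values were seen. Of the 15 genes in this list, 3 rose against the knockout (Scap, Xbp1 and Ern2) and 0 fell, where 7.77% of all genes were called, with a median of 0.02 against -0.02 over all genes. In the knockout 3 fell (Ern2, Atf6b and Ern1) and 0 rose, where 5.6% of all genes were called, and the calls for Atf6b, Ern1 and Scap were lost without 5, 8 and 8 of the libraries in turn (adjusted p up to 0.142, 0.134 and 0.142). The Ern2 calls held without each library, but the Ern2 call in the knockout was lost under 1 of the 22 alternatives. The averaged Ern2 changes in the knockout and against it rest in part on 2 counts in the mT69a knockout.

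Several regulators of secretory cells fell in the knockout and rose with the vector. Of 12 listed genes, which include Creb3l1 and Creb3l4 themselves, 9 were measured, and 4 fell in the knockout: Agr2 (-3.82 ± 0.53), Ern2, Creb3l1 and Foxa3 (-2.55 ± 0.19), where 5.6% of all genes were called. Foxa3, a forkhead factor of goblet cells, rose by 4.10 ± 0.19 against the knockout (adjusted p = 1.27e-06) and stood 1.56 ± 0.15 above the control (adjusted p = 0.000104). Agr2, a disulphide isomerase needed for mucin folding, rose by 3.75 ± 0.54 against the knockout (adjusted p = 0.00347) and did not pass against the control (-0.07 ± 0.39, adjusted p = 0.946). Against the knockout 6 of 9 rose in the vector libraries, where 7.77% of all genes were called, and these genes were partly chosen for their known tie to Spdef, so their direction is not independent evidence.

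Coat proteins and cargo receptors of ER-to-Golgi transport, the best known targets of the family, gave 7 calls in 50 with the vector against the knockout, where 7.77% of all genes were called. Of 52 listed genes for COPII coats, COPI coats and cargo receptors, 50 were measured. Of these 6 rose and 1 fell, and the median log2 change was 0.14 against -0.02 over all genes. With the replicate block 16 rose and 2 fell, where 15.8% of all genes were called. Ergic1, a cargo receptor of the ER-Golgi intermediate compartment, rose by 0.92 ± 0.09 (adjusted p = 0.000171). Its mean was 94.1 ± 4.34 CPM in the mT6 knockout and 177 ± 16.3 with the vector, and 108 ± 13.1 and 205 ± 18.2 CPM in mT69a.

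Lman1l, a homologue of the cargo receptor ERGIC-53, had the largest fitted change of this list against the knockout, and it passed the filter on low counts only through vector libraries. The control groups held 1 count in mT6 and 5 in mT69a. In mT6 it had 0 counts in the knockout and 109 with the vector, at least 67.3-fold higher against a floor of 3 counts over the group. In mT69a it had 2 and 29 counts, a ratio of 15.6 (95% exact interval 3.95 to 135). Sec24a, a COPII coat subunit, rose by 0.51 ± 0.10 (adjusted p = 0.0128), Sec16a, a scaffold of ER exit sites, by 0.41 ± 0.09 (adjusted p = 0.019), and Kdelr3, a retrieval receptor, by 0.98 ± 0.20 (adjusted p = 0.0121). The rises of Ergic1 and Lman1l held without each of the 12 libraries in turn, and those of the other 4 did not. The Lman1l call, counted among the 6 rises, is not independent of the filter that its vector libraries passed, so nothing is read from its stability. Without replicate 1 of the mT69a vector libraries 3 of the 6 passed. The Sec24a call was lost without replicate 1 of the mT69a knockout or vector libraries (adjusted p = 0.0663 and 0.0647).

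Sec16b, a second exit-site scaffold, went the other way. Its log2 change with the vector was -2.81 ± 0.30 against the knockout (adjusted p = 0.000227) and -3.59 ± 0.28 against the control (adjusted p = 2.11e-05). In mT69a it stood at 8.93 ± 0.54 CPM in the control, 11.3 ± 0.772 in the knockout and 1.02 ± 0.094 with the vector. Sec23a, the coat subunit known to depend on Creb3l2 in cartilage, fell by 0.63 ± 0.10 against the control (adjusted p = 0.00247). In the knockout against the control, 0 of the 50 genes were called by edgeR, with 13 at an unadjusted p under 0.05, 1 fall by DESeq2 and 0 by limma, and with the replicate block 2 rose and 12 fell, where 15.0% of all genes were called.

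The promoters of these transport genes hold the letters of a CREB3-type site at a higher share than promoters at large. The searched letters were TGACGT and CCACGT, with CGTGGC beside them, on both strands, and the 8-letter TGACGTGG, in which TGACGT overlaps CCACGT read on the other strand, was added after the sequences were seen. TGACGTGG stood in 10 of 55 promoter windows of the transport list (18.2%) and in 0.676% of all 32851 windows, TGACGT in 34.5% and 7.51%, CCACGT in 47.3% and 8.31%, and CGTGGC in 47.3% and 13.1%. In the translocation and matrix lists TGACGTGG stood in 0 of 18 and 0 of 15 windows. The shorter letters were also frequent there: CCACGT stood in 27.8% and 40.0% of those windows and CGTGGC in 38.9% and 46.7%. TGACGT stood in 11.1% and 6.67%. In the processing list CCACGT and CGTGGC each stood in 33.3% of windows. The 10 transport windows with TGACGTGG belong to 9 genes, since Arf1 counts with 2 starts. The following stretches of 28 bases are shown for 3 genes that passed a test and 2, Sec24d and Copb1, that did not and were chosen after their values were seen, with TGACGTGG in capitals, from the RefSeq table of GRCm38.p6.
Sec16b (chr1:157506742-157506769, plus strand): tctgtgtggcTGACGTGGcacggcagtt
Kdelr3 (chr15:79516368-79516395, minus strand): ggccgcgcggTGACGTGGcggggcggcc
Sec23a (chr12:59011994-59012021, minus strand): tcctccccttTGACGTGGcagaggcggc
Sec24d (chr3:123267460-123267487, plus strand): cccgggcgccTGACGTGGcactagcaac
Copb1 (chr7:114254691-114254718, plus strand): agtccttggcTGACGTGGaagggggcgg
Of the genes holding the letters, 1 rose and 1 fell with the vector against the knockout, where 7.77% of all genes were called. With Nfe2l1, which has TGACGTGG and belongs to the ER stress list, 10 genes were compared. Against the knockout Kdelr3 rose by 0.98 ± 0.20 (adjusted p = 0.0121) and Sec16b fell by 2.81 ± 0.30, while Sec24d (0.36 ± 0.12, adjusted p = 0.128), Copb1 (0.23 ± 0.09, adjusted p = 0.182) and 6 others did not pass. The median over the 10 was 0.11 against -0.02 over all genes, and all but Sec16b and Sec23a had changes above 0. Against the control Kdelr3 rose by 1.35 ± 0.20, a call that held without each library in turn, whereas its call against the knockout was lost without replicate 2 of the mT69a knockout (0.86, adjusted p = 0.0503). These matches are a description of letters near a start, and binding was not measured. The letters do not tell the CREB3 family from relatives that bind related sites.

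With the vector against the knockout, genes of translocation into the ER were called about as often as all genes. Of 25 measured, 2 rose and 0 fell, where 7.77% of all genes were called: Sec11c, a subunit of signal peptidase (0.70 ± 0.13, adjusted p = 0.00916), and Sec62, a partner of the translocon (0.53 ± 0.14, adjusted p = 0.0393). The Sec11c call held without each of the 12 libraries in turn, and the Sec62 call was lost without 8 of them (adjusted p from 0.0547 to 0.124). With the replicate block 4 rose, where 15.8% of all genes were called. In the knockout 0 of 25 were called by edgeR, with 2 at an unadjusted p under 0.05 and 0 by DESeq2 or limma. There 1 rose and 1 fell with the block, where 15.0% of all genes were called.

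Matrix genes known as Creb3l1 or Creb3l2 targets gave calls in both directions. Of 19 listed, 12 passed the filter on low counts. In the knockout, where Creb3l1 fell, 4 rose: Spp1 (osteopontin, 2.24 ± 0.24, adjusted p = 0.000669), Col4a1 (a basement membrane collagen chain, 1.10 ± 0.14, adjusted p = 0.00149), P4ha2 (a prolyl hydroxylase, 0.72 ± 0.14) and Plod2 (a lysyl hydroxylase, 0.54 ± 0.10), and Ihh fell (-2.79 ± 0.50), where 5.6% of all genes were called. With the vector, 2 fell against the knockout, Acan (aggrecan, -2.54 ± 0.40, adjusted p = 0.00331) and Spp1 (-1.68 ± 0.23, adjusted p = 0.0018), and 0 rose, where 7.77% of all genes were called. The Ihh call was lost without replicate 1 of the mT69a knockout (adjusted p = 0.0559), and so were the P4ha2 and Plod2 calls in the knockout (0.0703 and 0.0659). P4ha2 was also lost without replicate 1 of the mT6 knockout or replicate 2 of the mT6 control (0.0507 and 0.0626), and Plod2 without replicate 1 of the mT69a control (0.0534). The summed fibroblast and osteoblast markers were at most 0.38 TPM in any library, with Col3a1 and Lum at 0 in every condition.

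The rises of Col4a1 and Spp1 in the knockout came mainly from a single line each. The mT6 means of Col4a1 were 12 ± 2.87 CPM in the control and 54.3 ± 6.32 CPM in the knockout, and those of mT69a were 251 ± 25.7 and 254 ± 9.83 CPM. The mT6 means of Spp1 were 65.4 ± 23.6 CPM in the control and 92.5 ± 38.8 CPM in the knockout, and those of mT69a were 6.74 ± 1.16 and 107 ± 4.42 CPM. In both genes the difference between the lines passed the test (-2.17 ± 0.29 and 3.48 ± 0.47, adjusted p = 0.00179 and 0.00255).

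The nuclear CREB and ATF relatives bind related sites without a membrane anchor. They are listed together with the coactivators Crebbp, Ep300, Crtc1, Crtc2 and Crtc3, 14 genes in all. Of these 2 rose against the knockout with the vector, the CREB coactivators Crtc1 (0.81 ± 0.16, adjusted p = 0.0106) and Crtc3 (0.60 ± 0.15, adjusted p = 0.0332), and 0 fell, where 7.77% of all genes were called. Both calls were lost without replicate 1 of the mT69a vector libraries (adjusted p = 0.062 and 0.144), and the Crtc3 call also without 6 other libraries. In the knockout 0 of 14 were called by edgeR, with 1 at an unadjusted p under 0.05 and 0 by DESeq2 or limma. Of the 14 liver and gut genes known as Creb3l3 targets, 4 were measured and 0 were called against the knockout by edgeR or DESeq2 (1 at an unadjusted p under 0.05, 1 rise by limma and 1 with the block). With the block 15.8% of all genes were called in that comparison.

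Against the control, the vector libraries gave 5 rises and 2 falls among the 50 transport genes, 3 rises among the 25 translocation genes, 4 rises and 2 falls among the 12 matrix genes, and 4 rises among the 9 secretory regulators, where 14.5% of all genes were called. The ER stress list had 2 rises and 1 fall, the nuclear relatives 2 rises and 1 fall, the processing list 2 falls and the liver and gut list 1 rise. Ergic1 stood 0.65 ± 0.09 above the control on the log2 scale (adjusted p = 0.000962), Ern2 2.01 ± 0.28 (adjusted p = 0.00127) and Col4a1 0.92 ± 0.14 (adjusted p = 0.00192), and Acan changed by -2.25 ± 0.40 (adjusted p = 0.00418). These 4 calls held without each library in turn. On log2(TPM + 1) with limma, Ern2 passed, and Ergic1, Acan and Col4a1 did not (adjusted p = 0.168, 0.087 and 0.0877). Tm4sf20 (-2.04, adjusted p = 0.0336), Tram2 (0.97, adjusted p = 0.031) and Cpt1a (0.49, adjusted p = 0.0482) were lost without 5, 7 and 10 of the 12 libraries, with an adjusted p up to 0.165, 0.101 and 0.131.

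**Figure D5:**
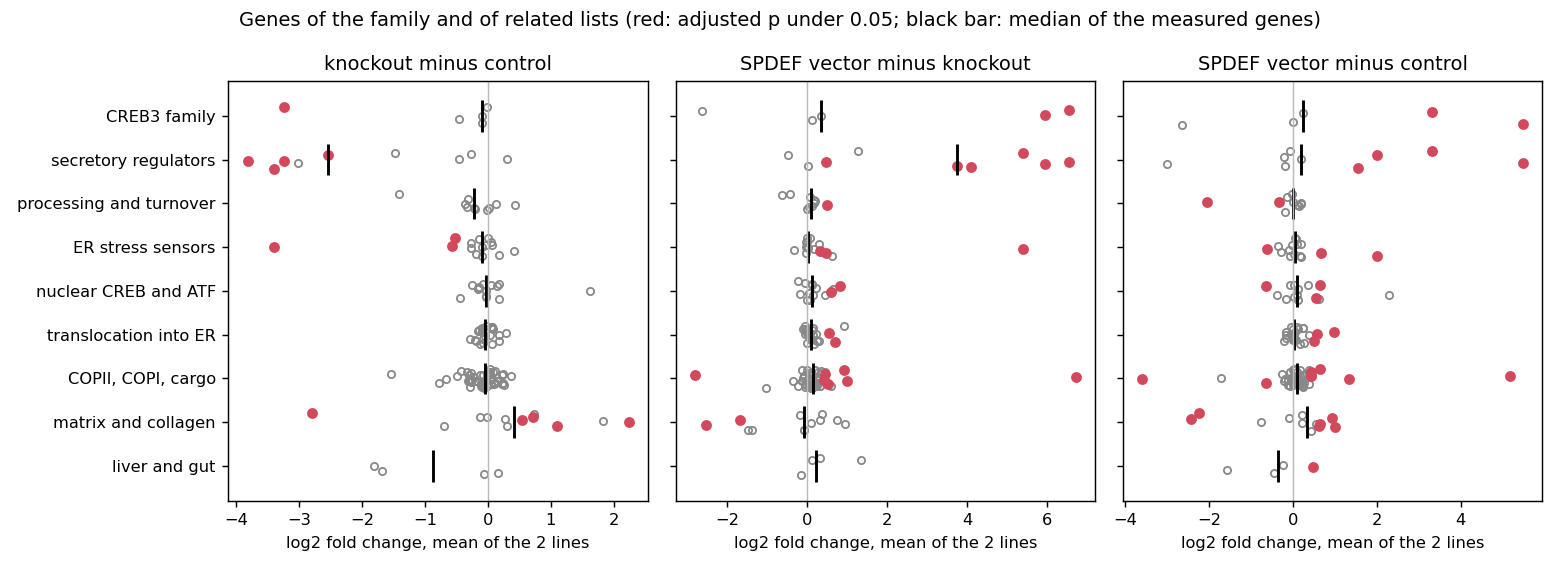
Log2 fold change, averaged over the lines, of each measured gene in the CREB3 family and the related lists, for the 3 comparisons. Red points passed an adjusted p of 0.05, grey circles did not, and black bars are list medians, so that the median of the transport genes with the vector against the knockout (0.14) can be set beside the rises of Creb3l1 (6.55) and Creb3l4 (5.95).

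The genes whose levels followed each member most closely were ranked by Pearson correlation of log2 CPM over the 12 libraries, among 11102 genes. The points share 6 groups and their depth differences, so they are not independent, and r is a description. For Creb3l4 these were Aspg (r = 0.987), Slco4c1, Zer1, Galk2 and Kcnk6, and for Creb3l1 they were Mpc1 (r = 0.964), Dennd6a, Ampd3, Bche and St8sia4. Kcnk6, a potassium channel, rose by 2.08 ± 0.11 on the log2 scale against the knockout and Mpc1, a carrier of pyruvate into mitochondria, by 1.01 ± 0.08. Both were picked by correlation in these same libraries, so their rises are not independent of that choice. Creb3 was followed most closely by Smpd1 (r = 0.907), Txnip, Erbin, Rab3d and Atg4d, and Creb3l2 by Phkb (r = 0.942), Btrc, Plpp5, Zfp644 and Pyroxd2. When levels were centred within each line, only 1 of the 5 genes stayed for each member: Aspg, Mpc1, Smpd1 and Phkb.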

How the data were processed

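RNA was measured in 12 libraries of 2 organoid lines, 2 per group. Per the labels' protocols, total RNA was extracted with Trizol, DNase-treated and made into TruSeq Stranded Total RNA libraries. The submitters' processing notes name FastQC 0.11.8, STAR 2.5.2b, RSEM 1.3.0 and GRCm38.p6; the annotation release and the strand setting are not given in the sources used here. The authors deposited expected counts, TPM, FPKM and isoform percent per gene or transcript, per the file headers. FPKM was not used. Expected counts were rounded; 8.08 to 11.3% of values were not whole (tolerance 0.005).

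All 12 libraries in 6 group means were fitted with edgeR 4.0.16 (filterByExpr, TMM, robust quasi-likelihood F test) in R 4.3.3, over 14473 genes and, separately, 37794 transcripts, with Benjamini-Hochberg adjusted p under 0.05 as the threshold. SE is the log2 change divided by the root of F. The script was tested on simulated counts. Depth was 9094295 to 28903831; the floor is 3 counts, and exact intervals are 95%. With 2 libraries against 2, no exact permutation p can fall below 0.33. Gene names matched GENCODE M21 for 53620 of 53715 identifiers; identifiers without a name held 0.0109% of counts. Promoters of 4 of the 5 genes were in the RefSeq table; Creb3l1 was not.

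Same-numbered libraries deviated together in all 15 pairs of groups (r from 0.205 to 0.531), so the replicate number was fitted as a block in an alternative. The main fit had no such term, and its p-values leave this pairing out. The pairing was read from these data. Alternatives were DESeq2 1.42.0, limma 3.58.1 on log2 TPM, other scalings and filters, the replicate block and leaving out each library. Named genes were the members, Spdef, the 5 genes most like each member, and in every averaged comparison the 4 strongest rises and 4 strongest falls per list among called genes whose mean reached 1 CPM. The members and lists were chosen with earlier results of these data known. Part of the labelled genotype shared by all groups is not reported here.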

Additional observations from a re-analysis of the deposited data

Results flagged for a closer look

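Several responses differed between the lines mT69a and mT6 by the test of the difference itself (edgeR, adjusted p under 0.05), and each value is the mT69a response minus the mT6 response on the log2 scale. Against the control, the vector response of Creb3l1 differed by 2.14 ± 0.35 (adjusted p = 0.00581) and that of Creb3l4 by 1.74 ± 0.25 (adjusted p = 0.00334). For both genes the control level was lower in mT69a. Against the knockout the difference between the lines passed for neither Creb3l1 (2.03 ± 0.62, adjusted p = 0.685) nor Creb3l4 (0.65 ± 0.27, adjusted p = 0.99998).

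Among transport genes, Ergic1 differed by 1.01 ± 0.18 in the knockout response (adjusted p = 0.00882) and by 1.03 ± 0.18 in the vector response against the control (adjusted p = 0.00901). It fell in the mT6 knockout (-0.77 ± 0.13) and gave 0.24 ± 0.13 in the mT69a knockout. Sec16b differed by 2.25 ± 0.41 in the knockout response (adjusted p = 0.00976), with a fall in mT6 (-1.91 ± 0.32) and 0.34 ± 0.27 in mT69a. Sec23a differed by -0.83 ± 0.21 in the knockout response (adjusted p = 0.0389) and by -0.95 ± 0.21 in the vector response (adjusted p = 0.0234), and it fell in the mT69a knockout (-0.70 ± 0.15).

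Among matrix genes, Col4a1 differed by -2.17 ± 0.29 in the knockout response (adjusted p = 0.00179) and by -1.45 ± 0.29 in the vector response (adjusted p = 0.0156). Spp1 differed by 3.48 ± 0.47 (adjusted p = 0.00255) and by 3.91 ± 0.48 (adjusted p = 0.00186), and with the vector it was below the control in mT6 (-1.40 ± 0.33) and above it in mT69a (2.51 ± 0.35). Ern2 differed by -4.23 ± 1.05 in the knockout response (adjusted p = 0.0422), which rests on 2 counts in the mT69a knockout. Tm4sf20, a membrane protein that governs Creb3l1 cutting, differed by -4.50 ± 0.94 (adjusted p = 0.0193): it fell in the mT69a knockout from 16.2 ± 3.23 to 1.31 ± 0.484 CPM and gave 0.84 ± 0.70 in mT6. Tram2, a translocon-associated protein, differed by 2.16 ± 0.51 in the vector response (adjusted p = 0.0348).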

How the results depend on the processing

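The averaged comparisons called for Creb3l1 and Creb3l4 kept their direction and their side of the threshold under all 22 alternatives: Creb3l1 in the knockout ran from -3.32 to -1.06, and with the vector from 3.37 to 6.67 against the knockout and 2.31 to 3.43 against the control. Creb3l4 ran from 4.91 to 6.11 and from 4.59 to 5.54. The ends near 0 came from log2(TPM + 1), whose pseudocount compresses low values.

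Directions of changes that were not called turned. Creb3 against the control gave -0.17, -0.19 and -0.17 on log2(TPM + 1), log2(TPM + 0.1) and unfiltered log2(TPM + 1). On the same scales Creb3l2 gave -0.011, -0.0086 and -0.011 against the knockout and -0.11, -0.15 and -0.11 against the control, where it was also -0.012 without the count filter. The line difference of Creb3l1 with the vector against the knockout was -0.45 on log2(TPM + 1) with and without the filter. Creb3l3 in the knockout was 0.00036 with only the compared groups fitted. Nothing is read from its knockout values here or below, because the mT69a control alone took the gene past the filter. The cause of the turned directions was not tested. Leaving out each library in turn gave -0.25 to 0.018, -0.047 to 0.27 and -0.15 to 0.15 for the 3 averaged Creb3l2 changes, -2.22 to 0.35 for Creb3l3 in the knockout, -0.012 to 0.13 for Creb3 between the control lines, -0.10 to 0.26 for the Creb3l1 line difference in the knockout and -0.047 to 0.18 for Creb3l4 in the mT69a knockout.

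With the replicate block, Creb3 against the knockout became called (0.34, adjusted p = 0.0453). So did a comparison of Creb3l3 with the mT69a control, from which nothing is read because that group alone took the gene past the filter. The uncalled Creb3l3 change in the knockout was 0.049 with the block. No other call changed among 75 comparisons of the members. Over all genes the block raised the calls from 810 to 2171 in the knockout, from 1125 to 2293 with the vector against the knockout and from 2092 to 3677 against the control. The same counts were 1555 and 1740 without the count filter for the first and second, 272 to 305, 428 to 459 and 740 to 796 with limma on TPM, and 431 to 889, 637 to 1098 and 1208 to 1904 without 1 library. Without the count filter Creb3l4-201 was called against the knockout (3.99, adjusted p = 1.96e-05) and the control (5.69, adjusted p = 1.69e-07). Centring within lines left 1 of the 5 genes most like each member in place, and a prior count of 0.5 left 3 of 5 for Creb3l1. Depth limits Creb3l3, Spdef and the mT69a knockout value of Creb3l1, and 2 libraries per group limit all changes near 0.3 on the log2 scale.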
